A study of Mus musculus with 12 samples.

Results

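The enzymes that add and remove methyl groups on histones, and those that remove acetyl groups, were followed through the cycle of the mouse seminiferous epithelium. They were taken by name, as all genes of the Kdm, Kmt, Setd, Hdac, Prmt and Sirt families read by a probe set with 1 gene symbol, and gave 62 genes of the 19946 measured. Of the 62, 18 are lysine demethylases, 18 are lysine methyltransferases or related SET domain proteins, 8 are arginine methyltransferases, 11 are histone deacetylases (HDACs) and 7 are sirtuins. RNA came from whole testes of adult male mice of a mixed 129/C57BL6 background, on 12 Affymetrix Mouse Gene ST arrays. All mice had received 100 ug per g of WIN 18,446 on 7 days from 2 to 8 days of age, an inhibitor of retinoic acid synthesis, then 200 ug of retinoic acid at 9 days, and had recovered for 43 to 49 days. This treatment synchronizes spermatogenesis, so that the tubules of one testis lie close together in the cycle. By their labels the samples form 6 stage groups of 2. They run through the cycle as XII-I, then II-IV, IV-VI and VII, then VIII-IX and IX-XI, all had the same treatment, and none was left untreated. Whether both samples of a group stand for different animals is not stated, and p-values rest on a spread between samples that may be purely technical.

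Lysine methyltransferases place methyl groups on histone tails and demethylases take them off. Methyl marks on lysine 4 of histone H3 (H3K4) lie at active promoters and enhancers, those on lysine 9 (H3K9) and on lysine 27 (H3K27) at silent chromatin, and those on lysine 36 (H3K36) along transcribed genes. HDACs and sirtuins remove acetyl groups, which closes chromatin, although several members act mainly on other proteins. Male germ cells use these enzymes through meiosis, when recombination sites are marked and the sex chromosomes are silenced, and again in spermatids, when histones are acetylated and most are replaced by protamines.

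Values are log2 of the deposited intensities, which show a gene's level on an array relative to the rest of that array. Array medians lay between 296.9 and 309.1 on the linear scale, and precision is limited by the small number of arrays. The tissue label was borne out by germ cell genes, with Ldhc, the lactate dehydrogenase of spermatocytes, at 13.35 to 13.60 over the arrays and the protamine Prm1 at 12.22 to 13.42. The epididymal gene Lcn5 lay at 6.56 to 7.04. For 9 of the 12 arrays, the array most like them over all genes belonged to another stage group, and both VIII-IX arrays were most like IX-XI sample 1. XII-I sample 1 and VII sample 2 stood furthest apart, with a correlation of 0.9877 and 0.99 to the array most like them, against 0.9949 or more for the other 10. In bulk tissue, fewer cells of a type and less RNA per cell cannot be told apart.

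Across the 6 groups, 20 of the 62 enzymes (32.3%) differed in limma's moderated F test at an adjusted p under 0.05, against 19.9% of all genes. Without the dimmest 30% of genes the gap was narrower, at 35.6% of the 59 enzymes still tested against 29.6% of the genes left. The median range between the highest and the lowest group mean was 0.45 log2 over the 62 and 0.34 over all genes. Among those past the test it was 0.65 log2 for the enzymes and 0.86 for all genes, and 4 enzymes (6.45%) passed with a range of at least 2-fold, against 7.5% of all genes. Those past the test with their highest mean in XII-I numbered 9 of 62 (14.5%, against 6.35% of all genes), or 45% of the 20 against 31.9% of all genes past it. A further 3 were highest in II-IV (4.84%, against 2.61%), 2 in IV-VI (3.23%, against 3.3%), 1 in VII (1.61%, against 1.09%), 3 in VIII-IX (4.84%, against 4.06%) and 2 in IX-XI (3.23%, against 2.51%). The lowest mean fell in XII-I for 2 (3.23%, against 2.49%), in II-IV for 1 (1.61%, against 2.27%), in IV-VI for 4 (6.45%, against 3.51%), in VII for 4 (6.45%, against 4.11%), in VIII-IX for 6 (9.68%, against 4.73%) and in IX-XI for 3 (4.84%, against 2.8%). Both arrays of the highest group stood above all 10 others for 11 enzymes (17.7%), against 18.5% of all genes. Leaving out 1 array at a time reused most of the arrays and the same 62 enzymes, so those fits are not separate tests. In them, the count past the F test depended on single arrays. It was 12 without XII-I sample 1, 13 without VII sample 1, 8 without VII sample 2, 9 and 8 without IV-VI samples 1 and 2, 6 and 9 without VIII-IX samples 1 and 2, and 7 and 8 without IX-XI samples 1 and 2. The share of the enzymes past the test lay above that of all genes in each of the 12 leave-outs, at 9.68% to 27.4% against 7.63% to 21.4%. It was 0 once sample 2 of VIII-IX and sample 2 of IX-XI were both left out, where 0.0953% of all genes passed and the 20 had adjusted p from 0.095 to 0.17. Sirt4, Kdm1a, Kmt2c and Kmt5b passed whichever single array was left out.

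**Figure D1:**
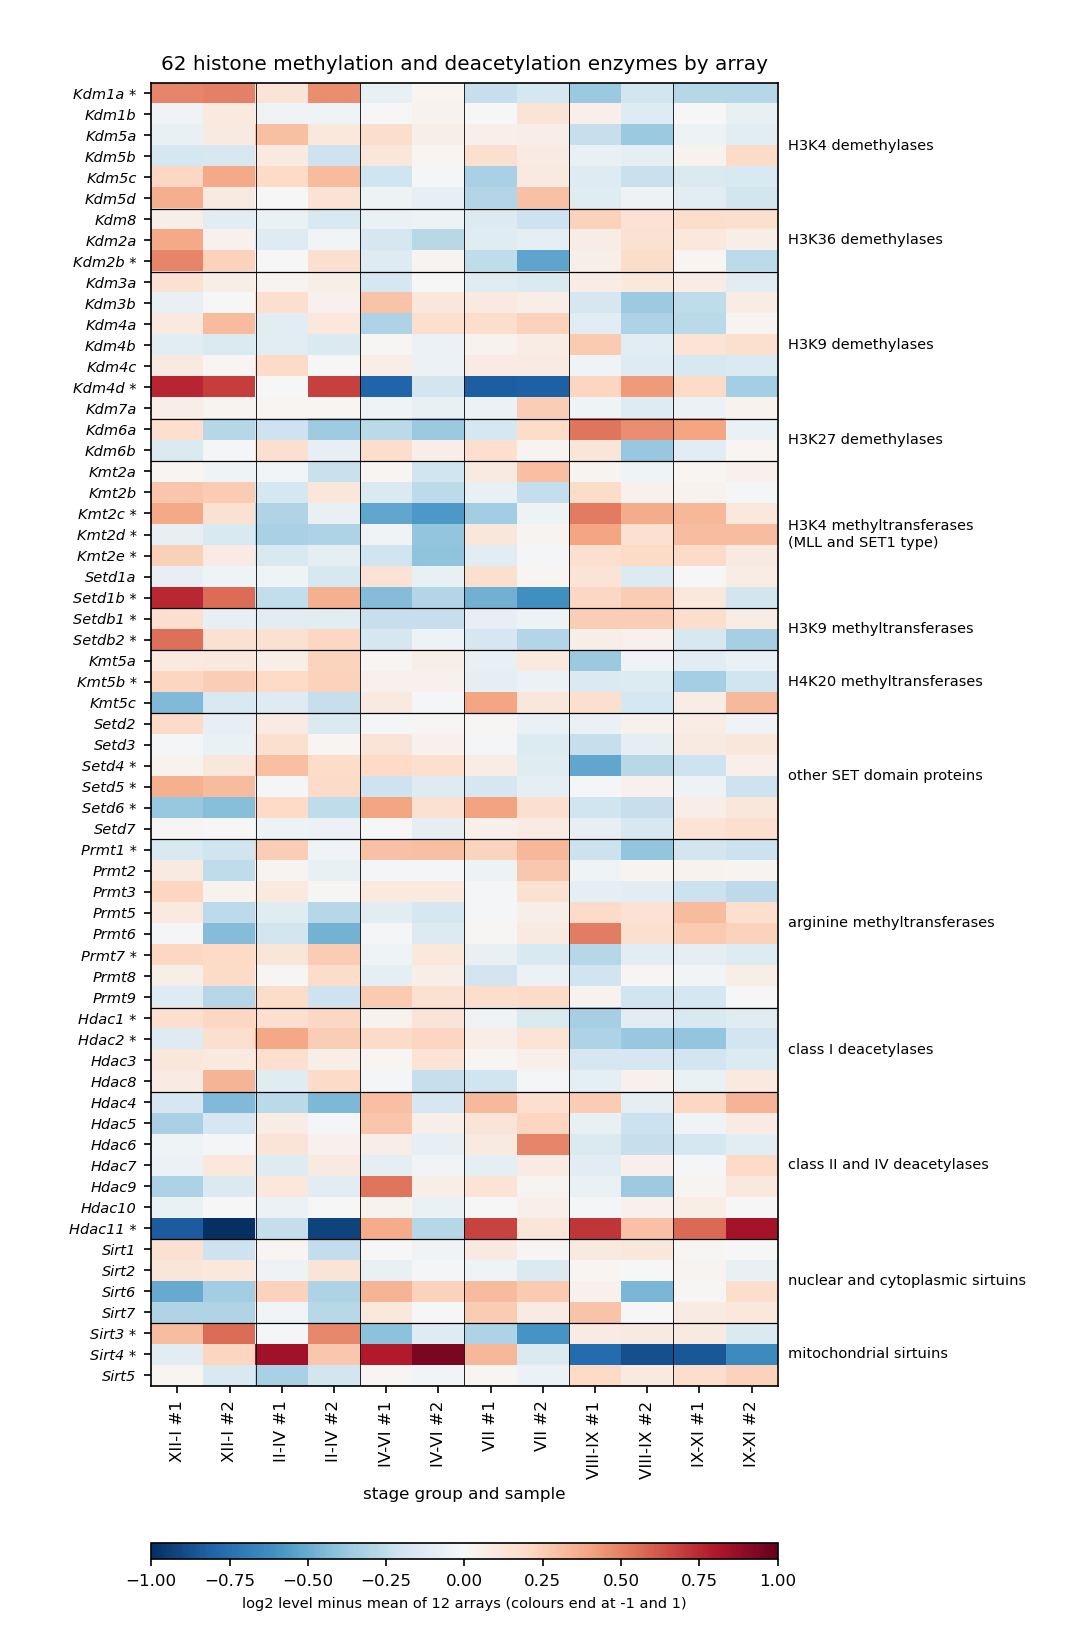
Each row is 1 of the 62 enzymes, grouped by role, and each column 1 of the 12 arrays in the order of the cycle; colour is the log2 level minus the gene's mean over the arrays, from blue (lower) to red (higher). An asterisk marks the 20 enzymes past the F test; Hdac11, Sirt4, Kdm4d and Setd1b, which ranged at least 2-fold, show the deepest colours.

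The count by family ran as follows. Of 18 lysine methyltransferases and SET proteins, 10 passed (55.6%), and of 18 demethylases 3 passed (16.7%), beside the 19.9% of all genes. Of 11 HDACs 3 passed, of 8 arginine methyltransferases 2 and of 7 sirtuins 2. No test was made of the difference between families. Over the 12 leave-outs, in which 7.63% to 21.4% of all genes passed, 2 to 8 of the methyltransferases and 1 to 4 of the demethylases did. Without VII sample 2 there were 2 of each, and 9.94% of all genes.

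Promoter sequences are shown for Hdac11, Sirt4 and Kdm4d, which ranged at least 2-fold, and for Kdm1a. The RefSeq promoter table used here held no window for Setd1b. Kdm1a kept its call in every leave-out, but so did Sirt4, Kmt2c and Kmt5b, so this does not single it out. The Kmt2c window, not printed, held 0 matches to the motifs marked below, and Kmt5b, not printed either, had CAGTTG and GTTGCC. Each window runs from 250 bases before to 50 after a gene's start on GRCm38.p6, 5′ to 3′ on the gene's strand. Capitals mark matches, on either strand, to 5 short motifs, TGACGTCA (CRE), CAGTTG (MYB), GTTGCC (an RFX half-site), AGGTCA (a half-site of retinoic acid receptors) and CCAAT. The windows are chr6:91156565-91156864 (plus strand), chr5:115484248-115484547 (minus strand), chr9:14500433-14500732 (minus strand) and chr4:136602674-136602973 (minus strand).
Hdac11: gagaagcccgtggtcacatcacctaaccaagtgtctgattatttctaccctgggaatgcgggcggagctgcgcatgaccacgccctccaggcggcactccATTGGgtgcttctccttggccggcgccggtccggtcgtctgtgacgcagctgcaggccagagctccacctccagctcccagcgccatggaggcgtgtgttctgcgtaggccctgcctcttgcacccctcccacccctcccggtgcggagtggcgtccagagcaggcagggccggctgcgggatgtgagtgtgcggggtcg
Sirt4: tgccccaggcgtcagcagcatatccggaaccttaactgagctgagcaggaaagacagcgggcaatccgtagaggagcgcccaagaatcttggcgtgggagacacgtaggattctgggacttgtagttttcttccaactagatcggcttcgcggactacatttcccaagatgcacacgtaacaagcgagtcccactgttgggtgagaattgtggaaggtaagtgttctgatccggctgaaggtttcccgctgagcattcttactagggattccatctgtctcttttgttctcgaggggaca
Kdm4d: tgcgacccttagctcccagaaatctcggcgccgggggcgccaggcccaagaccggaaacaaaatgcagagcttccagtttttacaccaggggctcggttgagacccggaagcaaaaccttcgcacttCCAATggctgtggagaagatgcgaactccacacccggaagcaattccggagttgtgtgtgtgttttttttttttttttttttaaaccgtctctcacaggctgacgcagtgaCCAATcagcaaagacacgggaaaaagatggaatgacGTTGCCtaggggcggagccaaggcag
Kdm1a: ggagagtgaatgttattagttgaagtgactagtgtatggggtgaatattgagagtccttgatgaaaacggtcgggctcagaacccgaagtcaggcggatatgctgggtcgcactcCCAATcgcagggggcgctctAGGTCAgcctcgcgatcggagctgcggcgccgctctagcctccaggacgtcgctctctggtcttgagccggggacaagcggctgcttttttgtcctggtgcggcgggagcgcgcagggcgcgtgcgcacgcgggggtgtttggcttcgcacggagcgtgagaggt
The Hdac11 window holds 1 match, CCAAT on the minus strand. The Kdm4d window holds CCAAT at bases -123 and -12 from the start and GTTGCC at base 25. The Kdm1a window holds CCAAT at -135 and AGGTCA at -115, and the Sirt4 window holds none of the 5, which says only that these letters are not in it. No matches overlapped.

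Windows were found for 51 of the 62 enzymes, 68 windows in all. GTTGCC lay in 16 of the 68 (23.5%, against 12.5% of 32851 windows of all genes) and CCAAT in 29 (42.6%, against 37.4%). CAGTTG lay in 8 (11.8%, against 13.7%), AGGTCA in 7 (10.3%, against 16.3%) and TGACGTCA in 1 (1.47%, against 1.79%). Of the 17 enzymes past the F test that had a window, 9 had CCAAT, 4 had GTTGCC (Kdm2b, Kdm4d, Kmt5b and Setd4), 3 had CAGTTG (Kdm2b, Kmt5b and Prmt1), 1 had AGGTCA (Kdm1a) and 0 had TGACGTCA. Of all 51 enzymes with a window, 25 had CCAAT, 13 had GTTGCC, 6 had CAGTTG, 7 had AGGTCA and 1 had TGACGTCA. A match is a description of the letters and not a binding site.

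The demethylases past the F test were Kdm4d, Kdm1a and Kdm2b, and all 3 were highest in XII-I. Kdm4d (probe set 10590915), which removes methyl groups from H3K9 and is known for its high level in testis, read 12.17 and 12.10 in XII-I, 11.41 and 12.09 in II-IV, 10.61 and 11.22 in IV-VI, 10.58 and 10.59 in VII, 11.62 and 11.83 in VIII-IX, and 11.60 and 11.07 in IX-XI. Both XII-I arrays lay above all 10 others, with II-IV sample 2 the closest, and both VII arrays were the lowest of the 12. It averaged 12.13 ± 0.05 in XII-I and 10.59 ± 0.01 in VII (SD, n = 2 each), a 2.93-fold difference (limma F test, adjusted p = 0.024; past the threshold in 8 of 12 leave-outs, and lost without either VII or either VIII-IX sample). A pseudogene copy, Kdm4dl, has no probe set of its own here, and whether it adds signal to this set was not tested. The other KDM4 enzymes, Kdm4a, Kdm4b and Kdm4c, did not pass, with ranges of 0.41, 0.28 and 0.24 log2.

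Kdm1a (10517465), also called LSD1, takes mono- and dimethyl groups off H3K4 as part of the CoREST complex. Its level was 11.42 and 11.44 in XII-I, 11.06 and 11.40 in II-IV, 10.86 and 10.95 in IV-VI, 10.70 and 10.76 in VII, 10.56 and 10.75 in VIII-IX, and 10.65 and 10.65 in IX-XI. The group means fell at every step from XII-I to IX-XI, and the XII-I mean was 1.71-fold that of IX-XI (limma, adjusted p = 0.014). Kdm2b (10533569), an H3K36 demethylase that also brings Polycomb proteins to CpG islands, read 9.84 and 9.58 in XII-I, 9.35 and 9.51 in II-IV, 9.22 and 9.38 in IV-VI, 9.10 and 8.82 in VII, 9.41 and 9.53 in VIII-IX, and 9.37 and 9.09 in IX-XI. Its XII-I mean was 1.68-fold that of VII, close to the threshold (adjusted p = 0.049), and it passed neither in any of the 12 leave-outs nor with the replicate number as a block.

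Of the other 15 demethylases, none passed the F test, though Kdm5a and Kdm6a were called when VIII-IX was set against the other groups. Kdm5a, an H3K4 demethylase, lay just outside the threshold at 0.050, with its highest mean in II-IV, 1.42-fold above VIII-IX. Kdm6a, the X-linked H3K27 demethylase, had the widest range of those that missed, 1.75-fold between VIII-IX and IV-VI (adjusted p = 0.069). Kdm3a, an H3K9 demethylase that mouse spermatids need to express the transition protein and protamine genes, did not pass, with group means between 11.49 and 11.73 (adjusted p = 0.31). The rest were Kdm1b, Kdm2a, Kdm3b, Kdm4a, Kdm4b, Kdm4c, Kdm5b, Kdm5c, Kdm5d, Kdm6b, Kdm7a and Kdm8, with ranges of 0.11 to 0.48 log2. The sex-linked members Kdm5c, Kdm6a, Hdac6 and Hdac8 on the X chromosome and Kdm5d on the Y did not pass in the F test.

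Among the MLL and SET1 proteins, most of which methylate H3K4, Kmt2c, Kmt2d, Kmt2e and Setd1b passed and Kmt2a, Kmt2b and Setd1a did not, 4 of 7 in all. Setd1b (10525489), the catalytic subunit of a SET1 complex, read 10.78 and 10.58 in XII-I, 9.78 and 10.38 in II-IV, 9.59 and 9.73 in IV-VI, 9.54 and 9.41 in VII, 10.23 and 10.28 in VIII-IX, and 10.13 and 9.84 in IX-XI. Both XII-I arrays were above all others, and the XII-I mean was 2.31-fold that of VII (limma, adjusted p = 0.021; lost without XII-I sample 1 or VII sample 2). Its second probe set (10525495) ranged 1.14 log2 between the same 2 groups. Setd1a, the paralog that takes the same place in a sister complex, ranged 0.19 log2 (adjusted p = 0.76).

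Kmt2c and Kmt2d encode the large enzymes MLL3 and MLL4, which place monomethyl H3K4 at enhancers. Kmt2c (10528723) read 9.91 and 9.68 in XII-I, 9.23 and 9.45 in II-IV, 9.01 and 8.95 in IV-VI, 9.18 and 9.48 in VII, 10.05 and 9.90 in VIII-IX, and 9.86 and 9.63 in IX-XI. The 2 IV-VI arrays were the lowest, while VIII-IX overlapped with XII-I. Its mean was 2.00-fold higher in VIII-IX than in IV-VI (adjusted p = 0.015), just under the 2-fold mark before rounding. Kmt2d was highest in IX-XI, at 10.15 ± 0.00, and lowest in II-IV, at 9.53 ± 0.01 (SD, n = 2 each). The difference was 1.54-fold (limma F test, adjusted p = 0.029). The call was lost without VII sample 2, VIII-IX sample 1 or an array of IX-XI. Its second probe set was 0.50 log2 higher in IX-XI than in II-IV, but its highest mean lay in VIII-IX, 0.61 log2 above II-IV. Kmt2e, the related protein MLL5, was 1.39-fold higher in VIII-IX than in IV-VI (adjusted p = 0.035; 4 of 12 leave-outs).

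Both H3K9 methyltransferases of the set passed. Setdb1, which silences retroelements and acts in silencing of the sex chromosomes in mouse spermatocytes, averaged 10.53 ± 0.00 in VIII-IX and 10.05 ± 0.00 in IV-VI (SD, n = 2 each), a 1.39-fold difference (adjusted p = 0.041). Setdb2 averaged 8.55 ± 0.28 in XII-I and 7.95 ± 0.12 in IX-XI (SD, n = 2 each), a 1.51-fold difference (adjusted p = 0.042). They kept the call in 2 and 1 of the 12 leave-outs. Kmt5b (10460202), which turns monomethyl lysine 20 of histone H4 (H4K20) into its di- and trimethyl forms, ranged little but with little spread. It read 9.00 and 9.03 in XII-I, 8.99 and 9.02 in II-IV, 8.83 and 8.83 in IV-VI, 8.69 and 8.73 in VII, 8.64 and 8.65 in VIII-IX, and 8.45 and 8.59 in IX-XI, and its mean was 1.41-fold higher in XII-I than in IX-XI (adjusted p = 0.017). Its relatives Kmt5a (adjusted p = 0.27) and Kmt5c (adjusted p = 0.13; range 0.54 log2, highest in VII) did not pass.

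Of the other SET proteins, Setd5 was 1.43-fold higher in XII-I than in IV-VI (adjusted p = 0.032), Setd4 was 1.56-fold higher in II-IV than in VIII-IX (adjusted p = 0.039), and Setd6, which in human cells methylates the NF-kappaB subunit RelA, was 1.61-fold higher in VII than in XII-I (adjusted p = 0.044). These 3 passed in 2, 1 and 2 of the 12 leave-outs. Setd2, the trimethylase of H3K36, which mouse spermatids need, ranged 0.09 log2 (adjusted p = 0.98). Setd3, which methylates actin, and Setd7 did not pass.

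**Figure D2:**
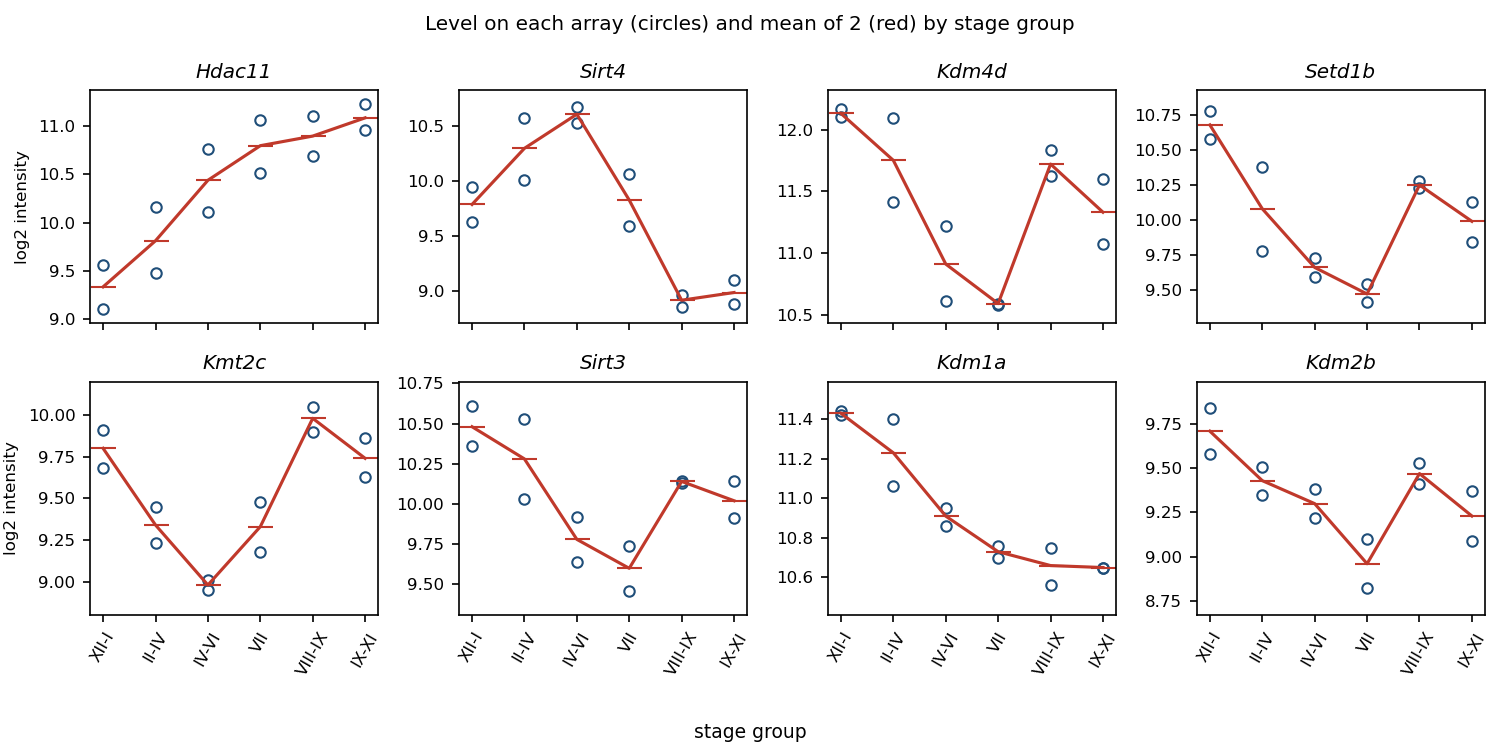
Log2 intensity on each array (circles, 2 per stage group) with the group mean (red) for the 8 enzymes past the F test that ranged most; each panel has its own vertical axis. Hdac11 is lowest in XII-I and highest in IX-XI, Sirt4 peaks in IV-VI, and Kdm4d, Setd1b, Sirt3 and Kdm2b are highest in XII-I and lowest in VII.

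Among the deacetylases, Hdac11 changed most. Hdac11 (10540075), the single class IV enzyme, which strips fatty acyl as well as acetyl groups, read 9.56 and 9.10 in XII-I, 10.16 and 9.47 in II-IV, 10.77 and 10.11 in IV-VI, 11.07 and 10.52 in VII, 11.11 and 10.69 in VIII-IX, and 10.96 and 11.23 in IX-XI. The group means climbed at every step of the cycle, though neighbouring groups overlapped, and it averaged 11.09 ± 0.19 in IX-XI and 9.33 ± 0.32 in XII-I (SD, n = 2 each), a 3.39-fold difference (limma, adjusted p = 0.023; lost when XII-I sample 2, VIII-IX sample 1 or an IX-XI array was left out). As the cycle returns to XII-I after IX-XI, its highest and lowest groups are neighbours in the cycle.

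The class I deacetylases Hdac1 and Hdac2, which form the core of the SIN3, NuRD and CoREST complexes, both passed with their lowest means in VIII-IX and their highest in II-IV, where Hdac1 was level with XII-I at 11.95. Hdac2 averaged 10.48 ± 0.10 in II-IV and 9.81 ± 0.05 in VIII-IX (SD, n = 2 each), a 1.59-fold difference (adjusted p = 0.022; lost without IV-VI sample 2, an array of VIII-IX or IX-XI sample 1), and both II-IV arrays lay above all others. Hdac1 averaged 11.95 ± 0.03 in II-IV and 11.55 ± 0.16 in VIII-IX (SD, n = 2 each), a 1.32-fold difference (adjusted p = 0.043; 1 of 12 leave-outs). A second probe set of that symbol (10447004) had its highest mean in XII-I, and was 0.37 log2 higher in II-IV than in VIII-IX. Hdac3, the deacetylase of the NCoR complex, had its extremes in II-IV and VIII-IX, at 11.87 ± 0.08 and 11.58 ± 0.00. It did not pass (adjusted p = 0.058), and neither did Hdac8 (adjusted p = 0.48). Of the class II enzymes, Hdac4 ranged 1.55-fold (adjusted p = 0.081) and Hdac9 1.44-fold (adjusted p = 0.20), and Hdac5, Hdac6, Hdac7 and Hdac10 also did not pass.

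**Figure D3:**
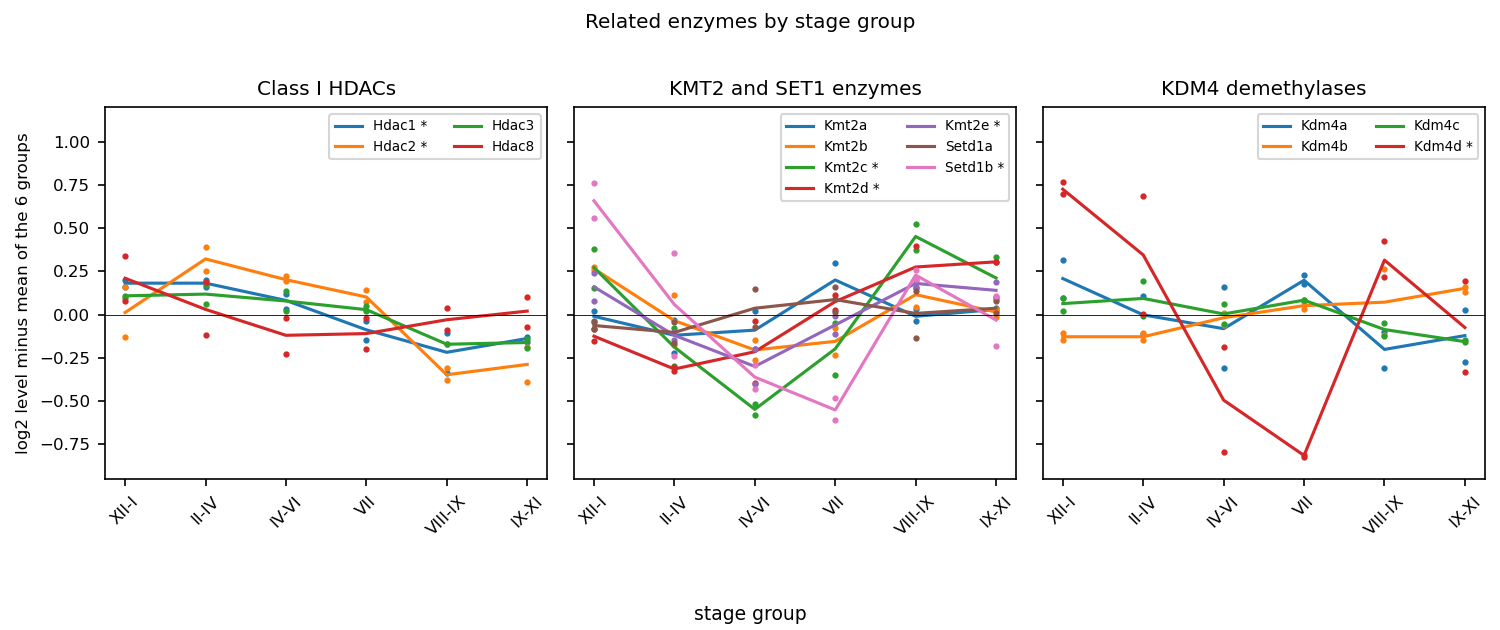
Group means (lines) and single arrays (dots) of class I HDACs, KMT2 and SET1 enzymes, and KDM4 demethylases, as log2 level minus the mean of the 6 groups; an asterisk marks genes past the F test. Hdac1 and Hdac2 are lowest in VIII-IX, Kmt2c and Kmt2e in IV-VI, and Kdm4d moves over 1.55 log2 while Kdm4a, Kdm4b and Kdm4c range 0.41 log2 or less.

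The sirtuins that passed are both mitochondrial and act mainly on mitochondrial proteins. Sirt4 (10532999), which removes lipoyl and other acyl groups from mitochondrial enzymes, read 9.63 and 9.95 in XII-I, 10.58 and 10.01 in II-IV, 10.53 and 10.68 in IV-VI, 10.07 and 9.59 in VII, 8.97 and 8.86 in VIII-IX, and 8.89 and 9.10 in IX-XI. All 4 arrays of VIII-IX and IX-XI lay below the other 8. It averaged 10.61 ± 0.10 in IV-VI and 8.92 ± 0.08 in VIII-IX (SD, n = 2 each), a 3.23-fold difference (adjusted p = 0.011). Sirt3 (10568997), the main mitochondrial deacetylase, read 10.36 and 10.61 in XII-I, 10.03 and 10.53 in II-IV, 9.64 and 9.92 in IV-VI, 9.74 and 9.46 in VII, 10.13 and 10.14 in VIII-IX, and 10.14 and 9.91 in IX-XI. Its XII-I mean was 1.85-fold that of VII, close to the threshold (adjusted p = 0.046; 2 of 12 leave-outs), and it did not pass with the replicate number as a block. The other mitochondrial sirtuin, Sirt5, lay just outside it (adjusted p = 0.054), with its highest mean in IX-XI. The nuclear and cytoplasmic sirtuins Sirt1, Sirt2, Sirt6 and Sirt7 did not pass, Sirt6, a deacetylase of H3K9, with a range of 1.65-fold (adjusted p = 0.093) and Sirt1 with one of 0.21 log2.

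Of the 8 arginine methyltransferases, 2 changed. Prmt1, which makes most asymmetric dimethylarginine in cells, averaged 9.37 ± 0.01 in IV-VI and 8.77 ± 0.13 in VIII-IX (SD, n = 2 each), a 1.52-fold difference (adjusted p = 0.019; lost without either IV-VI array), and the 2 VII arrays, at 9.30 and 9.41, overlapped with those of IV-VI, at 9.37 and 9.38. Prmt7, which makes monomethylarginine, was 1.32-fold higher in XII-I than in VIII-IX (adjusted p = 0.045; 1 of 12 leave-outs). Prmt5, the main symmetric enzyme, needed by mouse germ cells, ranged 0.44 log2 (adjusted p = 0.10), and Prmt6 ranged 1.58-fold (adjusted p = 0.066). Prmt2, Prmt3, Prmt8 and Prmt9 did not pass either.

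Single groups were then set against the mean of the other 5. In XII-I, 8 of the 62 enzymes were higher (12.9%, against 7.51% of all genes) and 3 lower (4.84%, against 3.33%) in limma. Those higher were Kdm4d by 0.87 ± 0.20 log2 (SE, n = 2 against 10), Setd1b by 0.79 ± 0.14, Kdm1a by 0.59 ± 0.09, Sirt3 by 0.52 ± 0.14, Kdm2b by 0.43 ± 0.11, Setdb2 by 0.42 ± 0.10, Setd5 by 0.41 ± 0.08 and Kmt5b by 0.27 ± 0.06. Those lower were Hdac11, at -1.28 ± 0.24, Setd6, at -0.48 ± 0.12, and the nucleolar sirtuin Sirt7, at -0.36 ± 0.09, with adjusted p from 0.021 (Kdm1a) to 0.048 (Sirt3) over the 11. The median difference was 0.03 log2 over the 62 and 0.01 over all genes. The count of 11 (17.7%) moved with that of all genes, 10.8% of which were called. Without XII-I sample 1 limma called 0 enzymes and 0 of all genes, and without XII-I sample 2 it called Setdb2 alone (1.61%, against 2.22% of all genes). It called 4 enzymes (6.45%) without IV-VI sample 1 (3.76% of all genes), without VIII-IX sample 1 (5.02%) or without IX-XI sample 2 (3.23%), and these were Hdac11, Kdm1a, Setd1b and Setd5 each time. Without VII sample 1 it called 7 (11.3%, against 7.01%). With array quality weights Kdm1a, Setd1b and Setd5 were called and the other 8, all 3 lower ones included, were not.

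In VIII-IX, 3 enzymes were higher (4.84%, against 3.53% of all genes) and 5 lower (8.06%, against 4.31%). Kdm6a was higher by 0.60 ± 0.15 log2 (SE, n = 2 against 10; adjusted p = 0.044), Kmt2c by 0.54 ± 0.11 and Setdb1 by 0.30 ± 0.07. Sirt4 was lower, at -0.99 ± 0.16 (adjusted p = 0.017), as were Setd4, at -0.48 ± 0.10, Hdac2, at -0.42 ± 0.09, Prmt1, at -0.37 ± 0.08, and Kdm5a, at -0.36 ± 0.08. The 8 (12.9%, against 7.84% of all genes) became 0 without VIII-IX sample 1 (0 of all genes) or sample 2 (0.867%). They became 4 and 2 without IV-VI samples 1 and 2 (6.45% and 3.23%, against 5.07% and 3.44% of all genes), and 5 and 3 without IX-XI samples 1 and 2 (8.06% and 4.84%, against 5.49% and 3.09%). With array quality weights Sirt4 alone was called. Without the dimmest 30% of genes the same 8 were called, 13.6% of the enzymes still tested, against 12.3% of the genes left. In IX-XI, Sirt4 was lower by a difference of -0.89 ± 0.16 log2 and Kmt5b by -0.32 ± 0.06, 2 of 62 (3.23%, against 1.79% of all genes), and 0 were higher, against 1.9% of all genes. The 2 became 0 without IV-VI sample 2 (1.49% of all genes) or either IX-XI sample (0 of all genes), and 4 (6.45%) without XII-I sample 1 (6.34% of all genes) or sample 2 (3.89%). In II-IV, IV-VI and VII limma called 0 enzymes and 0 of all genes, while 17, 21 and 14 enzymes had an unadjusted p under 0.05 (27.4%, 33.9% and 22.6%, against 17.2%, 20.4% and 19.9% of all genes). By the same mark XII-I had 26 enzymes (41.9%, against 26.7% of all genes), VIII-IX 24 (38.7%, against 24.9%) and IX-XI 19 (30.6%, against 22%).

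**Figure D4:**
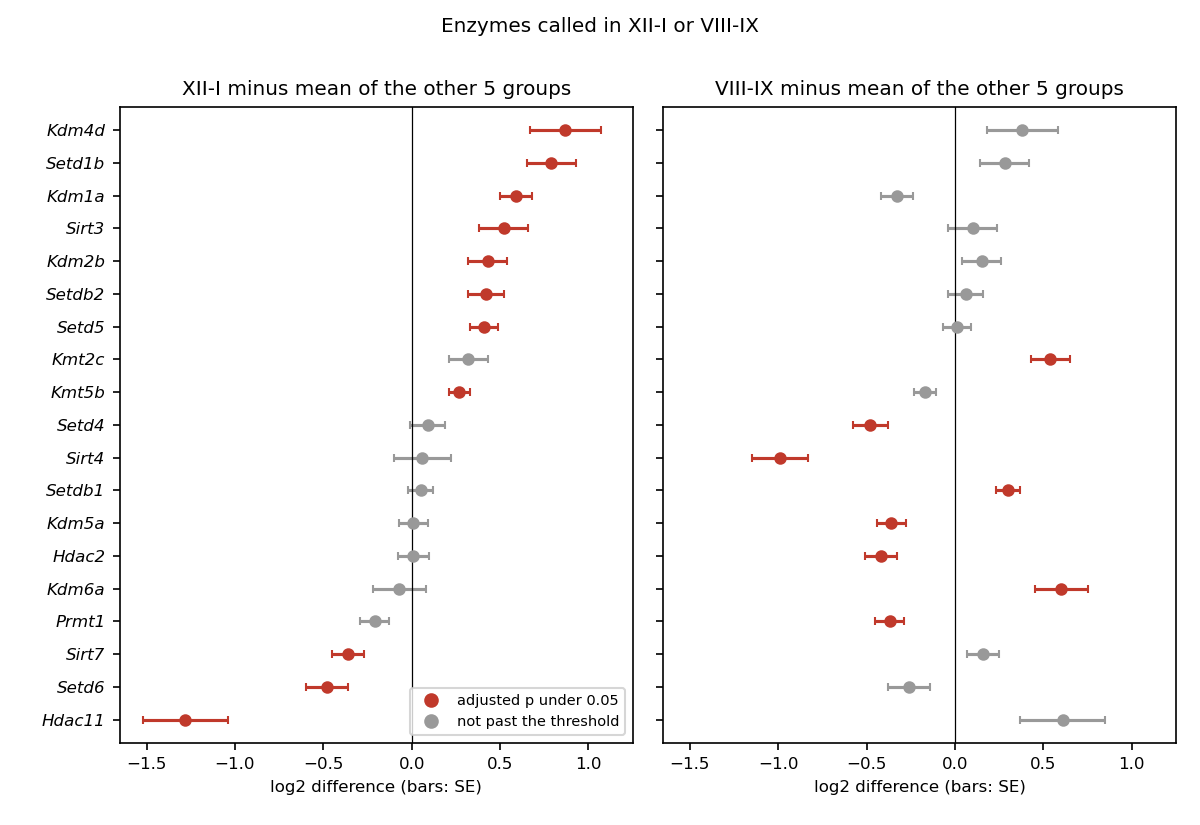
Log2 difference of XII-I (left) and VIII-IX (right) from the mean of the other 5 groups, with its SE, for the 19 enzymes past the threshold in either contrast (red, past it in that contrast). Kdm4d and Hdac11 stand at the ends in XII-I, at 0.87 and -1.28, and Kdm6a and Sirt4 in VIII-IX among those called, at 0.60 and -0.99.

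Markers of germ cell types moved over the same groups. All 9 measured markers of meiotic division had a positive difference in XII-I, and 8 had one in II-IV. Their summed linear intensity was 28182 and 27969 in XII-I, 23720 and 27713 in II-IV, and 16925 and 15217 in IX-XI. Of 12 markers of round spermatids, 1 had a positive difference in XII-I and 2 had one in VIII-IX. In II-IV 8 did, in IV-VI 11, in VII 12 and in IX-XI 10. These markers summed to 21605 and 28036 in XII-I, against 55744 and 50565 in IV-VI and 55876 and 49885 in VII. All 10 markers of elongating spermatids had a positive difference in VIII-IX, with a median of 0.1 log2, and limma called 0 of them higher there. They summed to 99986 and 98337 in VIII-IX, 93106 and 88885 in IX-XI and 93620 and 90477 in XII-I. The sums were 80973 and 91260 in II-IV, 74616 and 79797 in IV-VI, and 83063 and 76738 in VII. The 13 spermatocyte markers summed to 54001 to 61942 over all arrays, the 12 of spermatogonia to 5049 to 5937 and the 6 of epididymis to 407 to 691. VII sample 2 stood apart in somatic markers. Sertoli markers summed to 15851 and 21577 in VII samples 1 and 2, Leydig markers to 12140 and 17470 and macrophage markers to 2651 and 5741, and the sums in sample 2 were the highest of the 12 arrays. In the F test 7 of the 9 meiotic, 5 of the 13 spermatocyte, 5 of the 12 round spermatid, 3 of the 12 spermatogonial and 2 of the 10 elongating spermatid markers passed, and 3 of the spermatocyte markers that passed were highest in XII-I. None of the 11 Sertoli, 6 Leydig, 7 myoid or 7 endothelial markers passed the F test in limma. Of 8 macrophage markers 1 passed (Adgre1), and of the 6 of epididymis 1 (Rnase10, highest in XII-I). Beside these counts, 19.9% of all genes passed. The part that any of these cell types plays in the enzymes' changes was not tested.

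Partners of these enzymes were taken from 6 lists. Of 20 other histone methyltransferases 6 passed the F test (30%, against 19.9% of all genes), of 9 other demethylases and related proteins 4, of 29 subunits of methyltransferase complexes 9 (31%), of 36 subunits of deacetylase complexes 6 (16.7%), of 19 acetyltransferases and their subunits 9 (47.4%) and of 23 readers of acetyl or methyl lysine 7 (30.4%). Their median ranges were 0.42, 0.52, 0.39, 0.34, 0.53 and 0.38 log2, beside 0.34 over all genes. In XII-I, against 7.51% of all genes higher and 3.33% lower, limma called 4 higher and 1 lower of the 20 methyltransferases, 0 and 1 of the 9 demethylases, 7 and 1 of the 29 methyltransferase subunits, 3 and 0 of the 36 deacetylase subunits, 3 and 0 of the 19 acetyltransferases, and 5 and 0 of the 23 readers.

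Among partners past the test, the widest range was that of Phf2 (10409076), a demethylase of H3K9, which averaged 10.68 ± 0.10 in VIII-IX and 8.33 ± 0.34 in IV-VI (SD, n = 2 each), a 5.10-fold difference (limma, adjusted p = 0.024). Prdm9, which places H3K4 methyl marks at recombination sites, was 2.31-fold higher in VIII-IX than in II-IV (adjusted p = 0.015; 12 of 12 leave-outs), and Carm1, an arginine methyltransferase known also as PRMT4, was 1.97-fold higher in IX-XI than in XII-I (adjusted p = 0.025; 9 of 12). Prdm2 in XII-I was 1.69-fold its level in VII, close to the threshold (adjusted p = 0.049; 2 of 12). Jmjd6 was 1.89-fold higher in VIII-IX than in IV-VI (7 of 12), and Jarid2, a subunit of Polycomb complex PRC2, 1.54-fold higher in IV-VI than in VIII-IX (4 of 12).

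Sin3a, the scaffold that holds Hdac1 and Hdac2, averaged 10.56 ± 0.03 in II-IV and 9.52 ± 0.05 in VIII-IX (SD, n = 2 each). The difference was 2.05-fold (limma F test, adjusted p = 0.021). Hdac1 and Hdac2 had their extremes in the same 2 groups, with Hdac1 level between II-IV and XII-I. Among all genes past the test, VIII-IX was the commonest lowest group (4.73% of all genes). Whether Sin3a and those deacetylases vary together was not tested. Tbl1x, of the NCoR complex of Hdac3, was 1.74-fold higher in II-IV than in VIII-IX (7 of 12), and Brms1 was 1.62-fold higher in IV-VI than in VIII-IX (4 of 12). Among subunits of methyltransferase complexes, Phf1, of PRC2, was 1.92-fold higher in VIII-IX than in IV-VI (6 of 12). Dpy30 and Wdr5, shared by all KMT2 and SET1 complexes, were highest in IV-VI, Dpy30 by 1.86-fold over XII-I (2 of 12) and Wdr5 by 1.58-fold over VIII-IX (7 of 12). Of the enzymes they serve that passed the F test, Setd1b was lowest in VII, Kmt2c in IV-VI and Kmt2d in II-IV, and Kmt2a, Kmt2b and Setd1a did not pass.

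Of the acetyltransferases, Hat1, which acetylates new histone H4, averaged 11.32 ± 0.17 in II-IV and 9.83 ± 0.01 in IX-XI (SD, n = 2 each), a 2.80-fold difference (adjusted p = 0.011). Epc2, a subunit of the complex of Kat5, was 2.31-fold higher in II-IV than in IX-XI (12 of 12), and Kat5, or TIP60, was in XII-I 1.92-fold its level in VII (3 of 12). Of the readers, Phf6 was 2.15-fold higher in IV-VI than in VIII-IX (12 of 12). Phf21a, a subunit of the Kdm1a complex, was 2.02-fold higher in VIII-IX than in IV-VI, at the edge of the threshold (adjusted p = 0.050; 4 of 12), and Cbx3, the heterochromatin protein HP1 gamma, 1.62-fold higher in XII-I than in IX-XI (11 of 12).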

How the data were processed

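Total RNA of 12 testis samples was read on Affymetrix arrays, per the labels. The authors deposited intensity values on a linear scale, from 24.97 to 21760, normalized by RMA per the submitters' processing notes (version unstated). RMA subtracts background, forces the arrays to 1 distribution and joins a set's probes, which hides any change in total RNA. Log2 was taken with nothing added.

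The platform annotation gave 21797 of the 28853 probe sets 1 gene symbol, 1613 several and 5443 none, and only the first kind was used. A check of symbols against RefSeq (GRCm38.p6) by Entrez ID changed 0. Each gene kept its brightest probe set by the mean over all arrays, and 7 of the 62 enzymes had more than 1. Near-identical genes can share signal (Kdm4d with its pseudogene, Hdac1 with its copies, Kdm5c with Kdm5d, Kdm6a with Uty).

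Means of the 6 groups were fitted for 19946 genes in limma 3.58.1 (R 4.3.3; 6 residual degrees of freedom), with a moderated F test and a contrast of each group with the other 5. Adjusted p-values are Benjamini-Hochberg over all genes, at 0.05. The fit was tested on simulated data. The enzymes, the 6 partner lists and the 11 marker lists were chosen with earlier results of these data known. The text names every enzyme past the F test, with all arrays for the 8 of widest range, the 6 widest and 2 nearest that missed, and the 3 widest past the test per partner list. Kdm3a, Setd1a, Setd2, Prmt5, Sirt1 and Hdac3 are named besides, with their values seen. Alternatives were a further quantile normalization, dropping the dimmest 30% of genes, averaging probe sets, array weights, a replicate block and leaving out arrays.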

Additional observations from a re-analysis of the deposited data

How the results depend on the processing

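All 20 enzymes past the F test kept the sign of the difference between their highest and lowest group under all 18 alternatives. Much of this was fixed beforehand. Array weights, the replicate block and dropping dim genes left the group means unchanged. Leaving out an array outside a gene's 2 extreme groups did not touch those 2 means. The 20 were also chosen for their spread among these same groups. With the mean of all probe sets 21 passed (33.9%, against 19.8% of all genes), with array quality weights 22 (35.5%, against 23.2%) and with another quantile normalization 18 (29%, against 20.6%). Without the dimmest 30% of genes it was 21 of the 59 enzymes still tested (35.6%), against 29.6% of the genes left. The contrasts then called 14 enzymes in XII-I (23.7%, against 17.2%), 8 in VIII-IX (13.6%, against 12.3%) and 2 in IX-XI (3.39%, against 5.94%). With VIII-IX sample 2 and IX-XI sample 2 left out together, 0 passed in the F test and 0 in each contrast of a group with the other 5. Leaving out 1 array at a time gave 6 to 17 in the F test, 0 to 15 in XII-I, 0 to 3 in II-IV, 0 to 6 in IV-VI, 0 to 5 in VII, 0 to 10 in VIII-IX and 0 to 4 in IX-XI. The share of all genes called also moved with the array left out, in the F test and in each of these contrasts. These shifts were therefore not confined to the enzymes. Their cause was not tested. With array quality weights, which were equal for the 2 arrays of a group, the contrasts called 3 enzymes in XII-I (4.84%, against 2.77% of all genes), 11 in IV-VI (17.7%, against 15.2%), 1 in VIII-IX (1.61%, against 1.94%), 14 in IX-XI (22.6%, against 12.2%). Another quantile normalization gave 4 in IX-XI (6.45%, against 4.28%). Sample numbers 1 and 2 recur in every group. The difference of sample 2 from sample 1 correlated across genes at -0.35 to 0.54 over the 15 pairs of groups, above 0.1 in 7, and the mean over a group's 5 pairs was above 0 in 5 of the 6 groups. The labels give the numbers no meaning, so they were not used as pairs, and these mixed values do not settle whether they mark a shared origin. With the replicate block, 23 passed the F test (37.1%, against 20.8% of all genes), among them all of the 20 except Kdm2b and Sirt3, while the contrasts called 3 enzymes in II-IV (4.84%, against 3.76%), 11 in VIII-IX (17.7%, against 9.71%), 5 in IX-XI (8.06%, against 5.85%). Having 2 arrays per group limits all of these counts.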
